A study of Fukomys damarensis and Heterocephalus glaber and Cavia porcellus with 28 samples.

Results

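Phosphofructokinase and the genes that set the direction of flux between glycolysis and gluconeogenesis were compared in heart and liver of 4 rodent species. The set holds the phosphofructokinase-1 genes Pfkl, Pfkm and Pfkp, the phosphofructokinase-2 genes Pfkfb1, Pfkfb2, Pfkfb3 and Pfkfb4, the fructose-1,6-bisphosphatase gene Fbp1 and the phosphoenolpyruvate carboxykinase genes Pck1 and Pck2. Members were chosen by gene symbol, matched through the mouse Ensembl identifiers of the deposited tables. Of the 10 genes, 7 had a row among the 13928 rows of each table: Pfkl (ENSMUSG00000020277), Pfkm (ENSMUSG00000033065), Pfkp (ENSMUSG00000021196), Pfkfb1 (ENSMUSG00000025271), Pfkfb4 (ENSMUSG00000025648), Pck1 (ENSMUSG00000027513) and Pck2 (ENSMUSG00000040618). Pfkfb2, Pfkfb3 and Fbp1 were not analysed here. All 7 passed the filter on low values in both tissues.

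Ribosomal-RNA-depleted total RNA was sequenced from the naked mole-rat (Heterocephalus glaber), the Damaraland mole-rat (Fukomys damarensis), and 2 outgroups, the guinea pig (Cavia porcellus) and the mouse (Mus musculus). Heart came from 3 naked mole-rats aged 13 to 17 months, 5 Damaraland mole-rats aged 36 to 48 months, 3 guinea pigs aged 2.3 months and 3 mice aged 2 months. Liver came from 4, 5, 3 and 2 animals of these species in the same age ranges. No treatment is given in the labels, 10 of the 18 animals gave both tissues, and all libraries are labelled male except Damaraland liver replicate 4, which is labelled female. Age differs between the species throughout, so age and species cannot be told apart. One Damaraland animal is listed at 48 months for its heart and at 36 months for its liver.

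Phosphofructokinase-1 phosphorylates fructose-6-phosphate and is the main committed, regulated step of glycolysis. Its subunits are encoded by Pfkl, the main liver form, Pfkm, the muscle form, and Pfkp, the platelet form. The Pfkfb genes encode bifunctional enzymes that make and break down fructose-2,6-bisphosphate, which activates phosphofructokinase-1 and inhibits fructose-1,6-bisphosphatase. Phosphoenolpyruvate carboxykinase turns oxaloacetate into phosphoenolpyruvate and controls entry into gluconeogenesis, with Pck1 encoding the cytosolic and Pck2 the mitochondrial enzyme. The balance of the cytosolic and mitochondrial enzyme in liver is known to differ between mammalian species.

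Libraries held 4089633 to 26985779 reads in heart, with naked mole-rat replicate 3 the shallowest, and 11220505 to 21467939 in liver. The deposited values are variance-stabilised and log2-like, and 0 reads correspond to 5.36 in the heart table and to 4.29 in the liver table. Reads recovered from these values and divided by the library's size factor are called scaled reads. Neither scale is corrected for gene length, so each gene was compared across species and not with other genes. The tissue labels fit the markers, with Alb at rank 1 in every liver library and Myh6 at rank 1 to 18 in every heart library. In bulk tissue fewer cells of a type and less RNA per cell cannot be told apart. Tpi1, a glycolytic enzyme gene used by every cell, was at 0 reads in all Damaraland libraries of both tissues, so for any gene here a low value in a species cannot be told apart from how that species' reads were assigned to mouse gene identifiers.

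The largest species difference among the 7 genes was that of Pck2 in liver, where the naked mole-rat and the guinea pig were high and the Damaraland mole-rat and the mouse were low. Damaraland liver stood above the other 3 species in Pfkfb1 and Pfkfb4, both mole-rats stood above both outgroups in heart Pfkfb4, and the naked mole-rat heart was on average the lowest in Pfkfb1 and the highest in Pck1. A gene counted as called where limma gave an adjusted p under 0.05 and the difference between species was 1 or more in size on the log2-like scale. In heart 2 of 7 members were called in the mole-rat mean against the outgroup mean, both higher, against 23.4% of all 10667 genes tested. Members called in heart numbered 2 for naked against Damaraland mole-rat (29.4% of all genes), 4 for naked mole-rat against guinea pig (33.0%) and 5 for naked mole-rat against mouse (38.2%). They numbered 1 for Damaraland mole-rat against guinea pig (29.7%), 3 for Damaraland mole-rat against mouse (34.9%) and 2 for guinea pig against mouse (32.1%). With 7 members these counts describe the genes and nothing particular to the set is read from them.

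In liver 2 of 7 members were called in the mole-rat mean against the outgroup mean, both higher, against 28.1% of 10887 genes tested. Members called in liver numbered 4 for naked against Damaraland mole-rat (34.2%), 0 for naked mole-rat against guinea pig (37.8%) and 3 for naked mole-rat against mouse (41.2%). They numbered 4 for Damaraland mole-rat against guinea pig (36.2%), 5 for Damaraland mole-rat against mouse (39.2%) and 3 for guinea pig against mouse (37.2%). Over the 6 species pairs, 17 of 42 gene and pair combinations were called in heart, or 40.5% against 32.9% for all genes. In liver 19 of 42 were called, or 45.2% against 37.6%. The median difference of the members between mole-rats and outgroups was 0.19 in heart, against -0.01 for all genes tested, and 0.85 in liver, against 0.02. All members were set against the same libraries, so these contrasts share their samples.

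**Figure D1:**
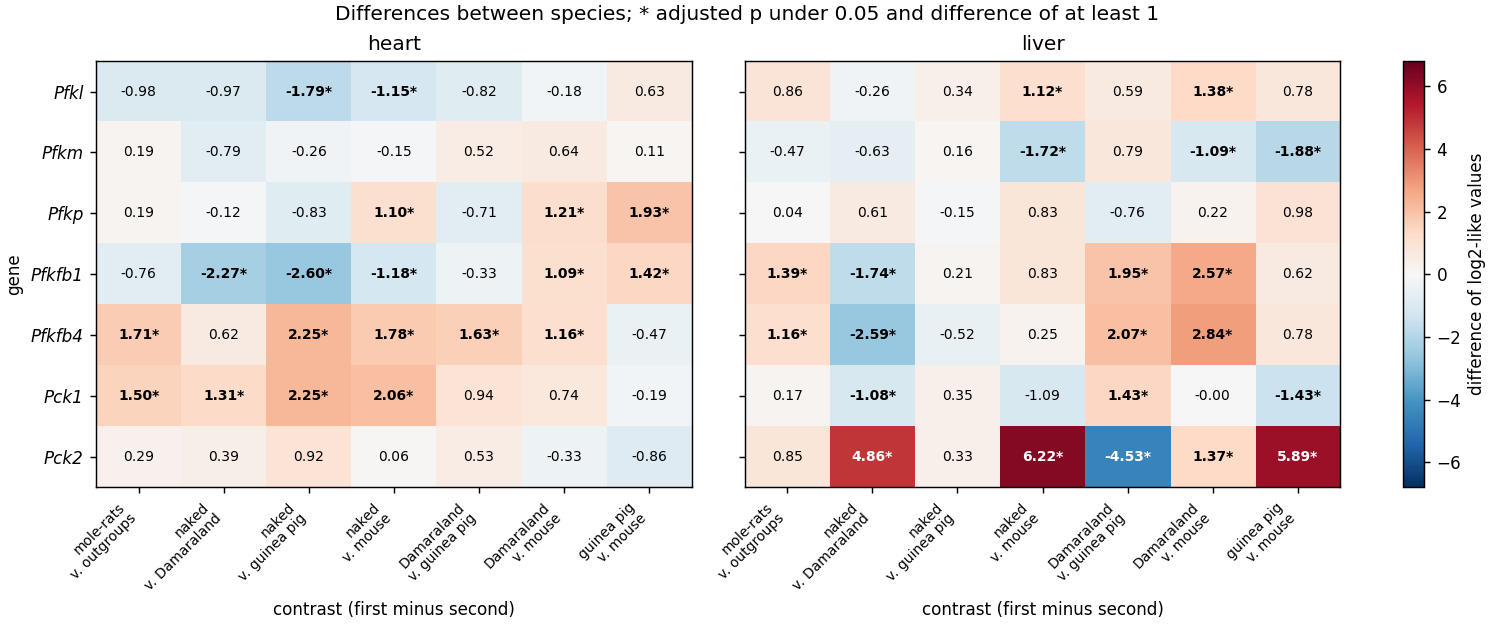
Difference between species in the deposited log2-like value for each member gene (rows) and contrast (columns, first named minus second) in heart and liver, with called differences starred. Pck2 in liver holds the strongest colours, at 6.22 for naked mole-rat against mouse and -4.53 for Damaraland mole-rat against guinea pig, while naked mole-rat against guinea pig has no starred cell in liver.

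Among the phosphofructokinase-1 genes in heart, Pfkl was lowest in the naked mole-rat and Pfkp was lowest in the mouse, and no pair of species was called for Pfkm. Heart Pfkl values were 10.37, 10.19 and 9.26 in the naked mole-rat, 10.76, 10.75, 10.97, 10.93 and 11.14 in the Damaraland mole-rat, 11.36, 11.73 and 12.09 in the guinea pig, and 11.10, 11.08 and 11.10 in the mouse. Every naked mole-rat heart lay below every heart of the other species, and every guinea pig heart lay above all others. Pfkl was lower in naked mole-rat than guinea pig heart by -1.79 (SE 0.25, limma adjusted p = 9.76e-06) and than mouse heart by -1.15 (SE 0.25, limma adjusted p = 0.000607). Without naked mole-rat replicate 3, the shallowest library, the difference from mouse was -0.81 and was no longer called. The mole-rat mean differed from the outgroup mean by -0.98 (SE 0.17, limma adjusted p = 5.84e-05), just short of the size threshold, and without any of guinea pig replicate 1, Damaraland replicate 5, naked mole-rat replicate 1 or naked mole-rat replicate 2 it was past it, at -1.08, -1.01, -1.09 and -1.05.

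Heart Pfkm, the form of striated muscle, stood between 13.99 and 15.23 in all 14 hearts. Its values were 14.24, 14.17 and 14.14 in the naked mole-rat, 14.36, 15.16, 15.06, 15.04 and 15.23 in the Damaraland mole-rat, 13.99, 14.59 and 14.76 in the guinea pig, and 14.27, 14.35 and 14.39 in the mouse. The Damaraland hearts were the highest but for replicate 1, which lay within the range of the other species. The largest difference, naked against Damaraland mole-rat, was -0.79 (95% interval -1.24 to -0.34) and did not reach the size threshold. The summed cardiomyocyte marker list (6 of 6 genes in the tables) was also highest in Damaraland heart, at 1294160 to 1769560 scaled reads. It was 499198 to 980539 in the naked mole-rat, 802694 to 889432 in the guinea pig and 1099120 to 1182380 in the mouse. Most of the Damaraland sums was Myh6 (849740 to 1188770). Other genes of the list differed: Ryr2 was lower in Damaraland (43403 to 81386) than in naked mole-rat heart (122661 to 165984), and Tnni3 was highest in the mouse (56935 to 60707). The part of the list in the Pfkm values was not tested. For naked mole-rat against mouse the interval ran from -0.65 to 0.35, so a difference of 1 in either direction lies outside it.

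Heart Pfkp values were 9.60, 10.20 and 9.89 in the mouse, against 10.99, 11.11 and 10.87 in the naked mole-rat, 10.94, 10.68, 11.59, 10.77 and 11.55 in the Damaraland mole-rat, and 11.85, 11.68 and 11.94 in the guinea pig. All mouse hearts lay below all hearts of the other 3 species, and all guinea pig hearts lay above them. The fibroblast marker list (4 of 5 genes in the tables) was likewise highest in the guinea pig, at 39557 to 104935 summed scaled reads. It was 8421 to 17477 in the naked mole-rat, 8796 to 33519 in the Damaraland mole-rat and 7023 to 8905 in the mouse. Most of the guinea pig sums was Col3a1 (31917 to 93928), which with Lum (1762 to 4416) was highest there. Dcn (4340 to 7742) and Pdgfra (1537 to 2114) overlapped with Damaraland hearts (3217 to 7148 and 771 to 2074). The part of the list in the Pfkp values was not tested. Pfkp was higher than in mouse heart by 1.93 in the guinea pig (SE 0.24, limma adjusted p = 3.17e-06), 1.21 in the Damaraland mole-rat (SE 0.21, limma adjusted p = 9.63e-05) and 1.10 in the naked mole-rat (SE 0.24, limma adjusted p = 0.00072). Without mouse replicate 1 the naked mole-rat difference was 0.95 and was no longer called. Of the reads on the 3 phosphofructokinase-1 genes in heart, Pfkp held 3.74% in the mouse, 6.11% in the Damaraland mole-rat, 9.13% in the naked mole-rat and 12.4% in the guinea pig (means over animals).

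**Figure D2:**
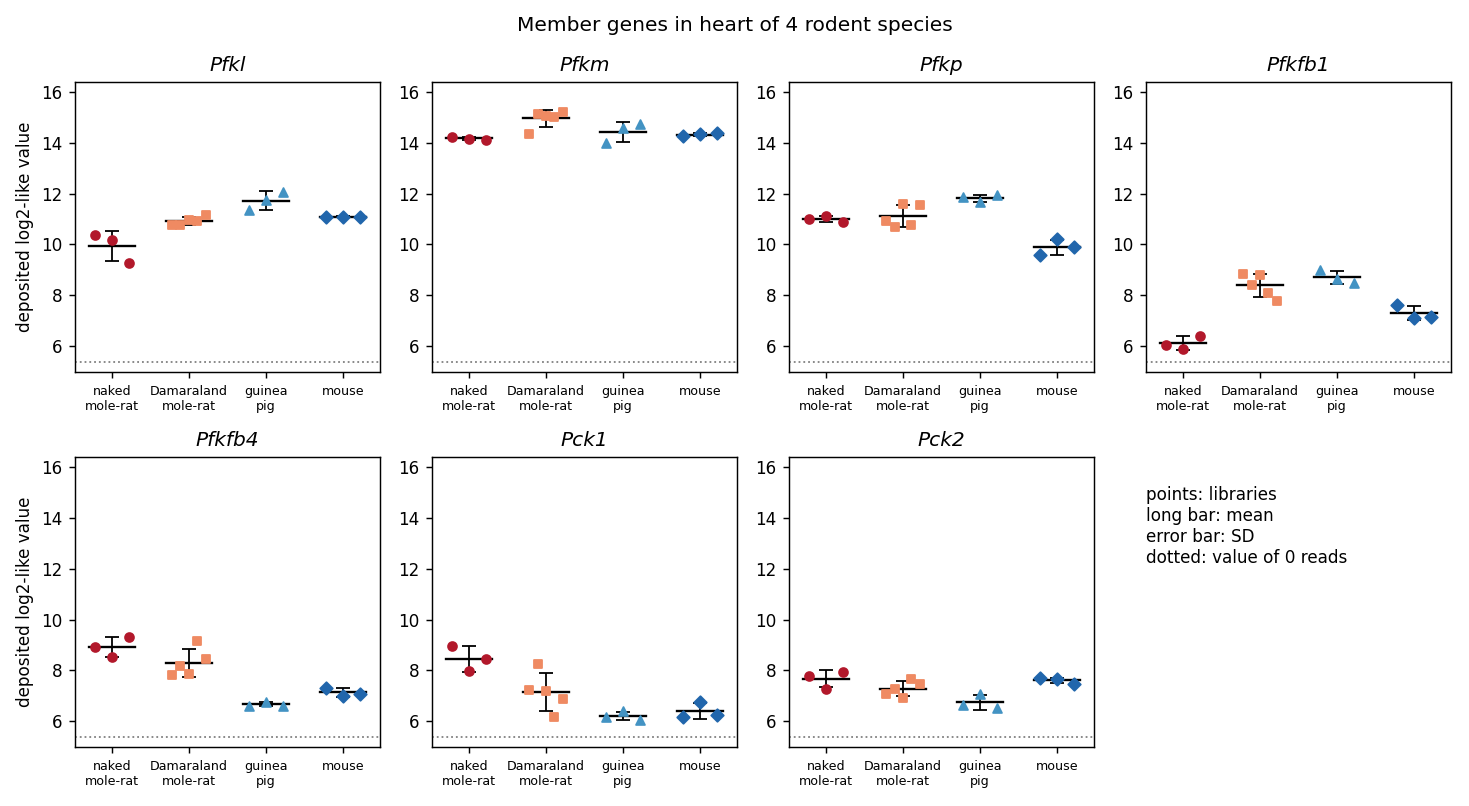
Deposited log2-like value of each member gene in each heart library of the 4 species; points are libraries, long bars are means, error bars are SD and the dotted line is the value of 0 reads. The naked mole-rat points are lowest for Pfkl and Pfkfb1, and both mole-rats lie above both outgroups for Pfkfb4.

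In liver Pfkl was lowest in the mouse, Pfkm was on average highest in the mouse, and no species pair was called for Pfkp. Liver Pfkl, the main hepatic form, was 9.31 and 9.78 in the mouse, against 10.31, 10.59, 11.02 and 10.74 in the naked mole-rat, 11.21, 10.65, 11.11, 10.65 and 11.00 in the Damaraland mole-rat, and 9.95, 10.30 and 10.73 in the guinea pig. Both mouse livers lay below all others, and the guinea pig livers overlapped with those of both mole-rats. Pfkl was higher than in mouse liver by 1.38 in the Damaraland mole-rat (SE 0.24, limma adjusted p = 7.44e-05) and by 1.12 in the naked mole-rat (SE 0.25, limma adjusted p = 0.000705). Without mouse replicate 1 the naked mole-rat difference was 0.89 and was no longer called. The mole-rat mean exceeded the outgroup mean by 0.86 (SE 0.16), under the size threshold.

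Liver Pfkm was 8.46 and 9.01 in the mouse, 7.13, 6.84, 7.24 and 6.86 in the naked mole-rat, 8.60, 7.32, 6.71, 7.39 and 8.21 in the Damaraland mole-rat, and 7.44, 6.22 and 6.92 in the guinea pig. The mouse livers were above all naked mole-rat and guinea pig livers and overlapped with the Damaraland livers, whose animals ranged from 6.71 to 8.60. Pfkm was lower than in mouse liver by -1.88 in the guinea pig (SE 0.43, limma adjusted p = 0.00123), -1.72 in the naked mole-rat (SE 0.41, limma adjusted p = 0.00139) and -1.09 in the Damaraland mole-rat (SE 0.39, limma adjusted p = 0.0228). Of the erythroid marker list only Alas2 has a row, and it was also highest in the mouse livers, at 1727 to 2164 scaled reads against 39.7 to 214 in the other species, and its part in the Pfkm values was not tested. The Damaraland call was lost without Damaraland replicate 3 (-0.86) and without mouse replicate 2 (-0.82). As a share of the reads on the 3 phosphofructokinase-1 genes, Pfkm held 32.8% in mouse liver, 8.08% in Damaraland, 5.89% in guinea pig and 5.09% in naked mole-rat liver. Pfkl held 60.0% in the mouse and 80.9% to 87.1% in the other 3 species.

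Liver Pfkp ran from 6.42 to 7.96, and no species pair was called. The naked mole-rat (7.69, 7.83, 7.96 and 7.49) and the guinea pig (7.96, 7.91 and 7.81) overlapped, as did the Damaraland mole-rat (7.62, 7.25, 6.90, 6.88 and 7.02) and the mouse (6.42 and 7.41). The widest difference was guinea pig above mouse by 0.98 (95% interval 0.41 to 1.55). The 2 mouse livers differed by about as much from each other.

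The bifunctional enzyme genes had species patterns that differed between the tissues. Pfkfb1 encodes the form known from liver and skeletal muscle, which glucagon signalling switches from kinase to bisphosphatase in liver. Heart Pfkfb1 was close to the value of 0 reads in the naked mole-rat, at 6.04, 5.87 and 6.40, or 6 to 11 reads per library. It was 8.84, 8.41, 8.79, 8.10 and 7.76 in the Damaraland mole-rat, 9.00, 8.63 and 8.49 in the guinea pig, and 7.63, 7.10 and 7.15 in the mouse. No naked mole-rat heart overlapped with any other, the mouse hearts lay below all Damaraland and guinea pig hearts, and the latter overlapped.

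Heart Pfkfb1 was lower in the naked mole-rat than in the guinea pig by -2.60 (SE 0.26, limma adjusted p = 2.79e-07), the Damaraland mole-rat by -2.27 (SE 0.23, limma adjusted p = 3.41e-07) and the mouse by -1.18 (SE 0.26, limma adjusted p = 0.000786). In scaled reads the species means were 13.5 in the naked mole-rat, 298 in the Damaraland mole-rat, 381 in the guinea pig and 96.7 in the mouse, which makes the ratio of guinea pig to naked mole-rat 28.2, or 47.6 without naked mole-rat replicate 3. The skeletal muscle marker list (6 of 6 genes in the tables) was also lowest in naked mole-rat heart, at 23920 to 32662 summed scaled reads. It summed to 49809 to 59573 in the mouse, 74379 to 81207 in the guinea pig and 123453 to 215394 in the Damaraland mole-rat. Most of each sum was Ckm, the only gene of the list that was lowest in the naked mole-rat (15123 to 21209). Myh4 and Myh1 were highest there, at 111 to 195 and 104 to 410 scaled reads, against at most 98.4 and 29.4 in the other species. The part of the list in the Pfkfb1 result was not tested. Pfkfb1 was 1 of 2 heart members called against each other species for the naked mole-rat, a pattern found in 9.02% of all genes. It was also the only member called in heart in all 4 contrasts of the naked mole-rat and mouse against the Damaraland mole-rat and guinea pig, a pattern of 2.67% of all genes. The Damaraland difference from mouse was 1.09 (SE 0.23, limma adjusted p = 0.000599) and fell under the size threshold without Damaraland replicate 1 (0.97), Damaraland replicate 3 (0.98) or mouse replicate 2 (0.99). The guinea pig difference from mouse was 1.42 (SE 0.26, limma adjusted p = 0.000192).

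In liver Pfkfb1 was highest in the Damaraland mole-rat, at 11.08, 10.66, 10.78, 10.67 and 10.79. It was 8.92, 9.08, 9.37 and 8.87 in the naked mole-rat, 8.69, 9.26 and 8.59 in the guinea pig, and 8.45 and 8.00 in the mouse. The lowest Damaraland liver lay above the highest liver of any other species, and the naked mole-rat and guinea pig overlapped. Damaraland liver was higher than mouse by 2.57 (SE 0.21, limma adjusted p = 1.03e-08), than guinea pig by 1.95 (SE 0.18, limma adjusted p = 5.22e-08) and the naked minus Damaraland difference was -1.74 (SE 0.17, limma adjusted p = 6.65e-08). In scaled reads the species means were 1946 in the Damaraland mole-rat, 556 in the naked mole-rat, 480 in the guinea pig and 294 in the mouse.

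Pfkfb4 encodes a form first known from testis and induced by hypoxia in many tissues. In heart it was 8.90, 8.51 and 9.31 in the naked mole-rat and 7.81, 8.16, 7.84, 9.15 and 8.46 in the Damaraland mole-rat. It was 6.61, 6.76 and 6.60 in the guinea pig and 7.32, 6.98 and 7.07 in the mouse. All 8 mole-rat hearts lay above all 6 outgroup hearts, and the mole-rats overlapped with each other. Heart Pfkfb4 was the only member called in the same direction in all 4 contrasts of a mole-rat with an outgroup, a result shared by 4.68% of all genes tested.

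The mole-rat mean of heart Pfkfb4 exceeded the outgroup mean by 1.71 (SE 0.19, limma adjusted p = 6.96e-07), and mean scaled reads were 458 in the naked mole-rat, 283 in the Damaraland mole-rat, 39.2 in the guinea pig and 77.5 in the mouse. The naked mole-rat was higher than the guinea pig by 2.25 (SE 0.28) and than the mouse by 1.78 (SE 0.28), and the Damaraland mole-rat was higher than the guinea pig by 1.63 (SE 0.25) and than the mouse by 1.16 (SE 0.25). The highest limma adjusted p of the 4 was 0.000723. Without Damaraland replicate 4, the highest of its group, the difference between Damaraland mole-rat and mouse was 0.94, which left 0 members called in all 4 contrasts.

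Liver Pfkfb4 was 8.07, 7.62, 8.31, 7.82 and 8.09 in the Damaraland mole-rat and 5.43, 5.05, 5.56 and 5.53 in the naked mole-rat. It was 5.93, 6.07 and 5.75 in the guinea pig and 4.90 and 5.37 in the mouse. All Damaraland livers lay above all others, while the naked mole-rat (4 to 21 reads per library) and the mouse (3 to 16 reads) were near the value of 0 reads. The naked minus Damaraland difference was -2.59 (SE 0.17, limma adjusted p = 7.76e-10), and Damaraland liver was higher than guinea pig by 2.07 (SE 0.19, limma adjusted p = 4.84e-08) and than mouse by 2.84 (SE 0.22, limma adjusted p = 5.56e-09). In scaled reads the species means were 242, 13.8, 30.9 and 8.40 in the Damaraland mole-rat, naked mole-rat, guinea pig and mouse.

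In liver Pfkfb1 and Pfkfb4 were the 2 members called higher in the Damaraland mole-rat than in each other species, a pattern of either direction in 8.81% of all genes. They were also the 2 members called in the mole-rat mean against the outgroup mean, at 1.39 (SE 0.14, limma adjusted p = 1.29e-07) and 1.16 (SE 0.15, limma adjusted p = 2.22e-06). For both genes the naked mole-rat was not called against either outgroup, so 0 members were called in liver in all 4 contrasts of a mole-rat with an outgroup, against 6.29% of all genes. The adipocyte marker list (7 of 7 genes in the tables) was also highest in Damaraland liver, at 3650, 970, 4194, 1462 and 1128 summed scaled reads in replicates 1 to 5 against 191 to 575 in the other species. Most of the Damaraland sums was Plin1 (623 to 3394), while Cidec was at most 2.47 and Lep was at 0 reads in 4 of the 5 livers. The part of these cells in the result was not tested.

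**Figure D3:**
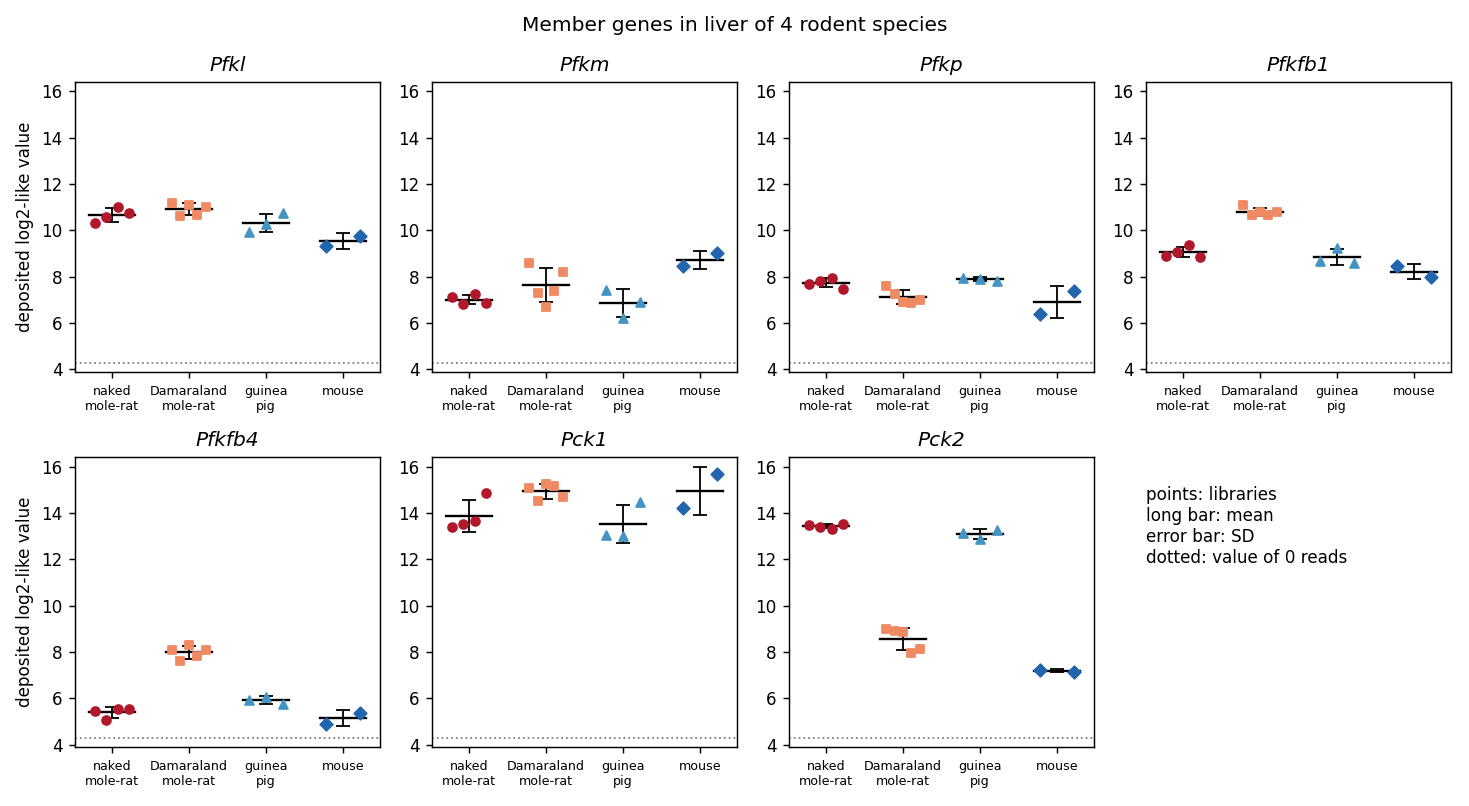
Deposited log2-like value of each member gene in each liver library of the 4 species; points are libraries, long bars are means, error bars are SD and the dotted line is the value of 0 reads. Pck2 splits the naked mole-rat and guinea pig (13.42 and 13.09 on average) from the Damaraland mole-rat and mouse (8.56 and 7.20), and Pfkfb1 and Pfkfb4 are highest in the Damaraland mole-rat.

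Pck1, the cytosolic carboxykinase induced by fasting hormones in liver, was abundant in all 14 livers. Its values were 13.39, 13.52, 13.64 and 14.87 in the naked mole-rat, 15.09, 14.53, 15.24, 15.18 and 14.67 in the Damaraland mole-rat, 13.05, 13.02 and 14.46 in the guinea pig, and 14.21 and 15.67 in the mouse. Animals of 1 species differed widely, with 1 naked mole-rat, 1 guinea pig and 1 mouse liver each more than 1 above the rest of its group. All Damaraland livers lay above all guinea pig livers, and the other pairs of species overlapped. Feeding state and time of day are not given in the labels.

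Damaraland liver was higher in Pck1 than guinea pig liver by 1.43 (SE 0.39, limma adjusted p = 0.00419), and the naked minus Damaraland difference was -1.08 (SE 0.36, limma adjusted p = 0.014). The latter call was lost without naked mole-rat replicate 1 (-0.93) or replicate 2 (-0.97). Guinea pig liver was lower than mouse liver by -1.43 (SE 0.49, limma adjusted p = 0.0189), a call lost without guinea pig replicate 1 (-1.20), guinea pig replicate 2 (-1.19) or mouse replicate 2 (-0.70). For the Damaraland mole-rat against mouse the 95% interval ran from -0.96 to 0.95, and for naked mole-rat against guinea pig from -0.52 to 1.22.

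Pck2, the mitochondrial carboxykinase, split the 4 livers in a different way. It was 13.46, 13.39, 13.31 and 13.51 in the naked mole-rat and 13.14, 12.86 and 13.27 in the guinea pig. It was 8.98, 8.90, 8.86, 7.97 and 8.11 in the Damaraland mole-rat and 7.24 and 7.15 in the mouse. No liver of the first pair of species overlapped with any of the second pair, and within the second pair all Damaraland livers lay above both mouse livers.

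Liver Pck2 was higher in the naked mole-rat than in the mouse by 6.22 (SE 0.26, limma adjusted p = 1.69e-12) and than in the Damaraland mole-rat by 4.86 (SE 0.20, limma adjusted p = 1.09e-12). By size of the difference it ranked 53 and 95 of 10887 genes in these contrasts. Guinea pig liver was higher than mouse liver by 5.89 (SE 0.27, limma adjusted p = 1.21e-11), and the Damaraland minus guinea pig difference was -4.53 (SE 0.22, limma adjusted p = 1.06e-11). In scaled reads the species means were 12122 in the naked mole-rat, 9701 in the guinea pig, 396 in the Damaraland mole-rat and 122 in the mouse, so that the naked mole-rat had 30.6 times the Damaraland and 99.2 times the mouse level. The Damaraland mole-rat in turn exceeded the mouse by 1.37 (SE 0.25, limma adjusted p = 0.00012).

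Naked mole-rat and guinea pig livers differed in Pck2 by 0.33 (95% interval -0.15 to 0.80) and were not called apart. Pck2 was the only member called in all 4 liver contrasts of the naked mole-rat and guinea pig against the Damaraland mole-rat and mouse, a pattern of 3.90% of all genes tested, or 425 genes. With 1 mole-rat on each side of this split, the mole-rat mean differed from the outgroup mean by 0.85 (SE 0.17), under the size threshold. Each of these 4 contrasts stayed called with any single library left out.

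Of the reads on Pck1 and Pck2 in liver, Pck2 held 42.8% ± 10.2 (SD, n = 4) in the naked mole-rat, from 28.0% to 51.2%, and 43.1% on average in the guinea pig, from 30.4% to 51.6%. It held 1.15% in the Damaraland mole-rat, from 0.57% to 1.84%, and 0.20% and 0.60% in the 2 mice. The 2 pairs of species did not overlap in this share. The share is of reads without correction for transcript length, so it compares species and does not give the balance of the enzymes.

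The summed bile duct and endothelial marker lists moved with the Pck2 split. The fibroblast and leukocyte lists overlapped across it, and the adipocyte list ran the other way. Adipocyte sums were 270 to 403 in the naked mole-rat and 191 to 284 in the guinea pig. They were 970 to 4194 in the Damaraland mole-rat and 511 to 575 in the mouse. The bile duct list, with 4 of 5 genes in the tables, summed to 2374 to 3308 scaled reads in the naked mole-rat and 927 to 2273 in the guinea pig, against 132 to 470 in the Damaraland mole-rat and 413 to 736 in the mouse. No single gene of it followed the split: Epcam made up most of the naked mole-rat sum (2090 to 3005), Krt19 most of the guinea pig sum (813 to 2179), and Spp1 was highest in the mouse (383 to 684). The endothelial list, with 5 of 5 genes, summed to 5147 to 7270 and 7052 to 9026, against 4322 to 4952 and 2873 to 3447 in the same order, and of its genes Cdh5 followed the split without overlap. Their part in the result was not tested. In heart the same Pck2 row did not follow the liver split, with Damaraland heart at 2.03 times the guinea pig level in scaled reads.

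**Figure D4:**
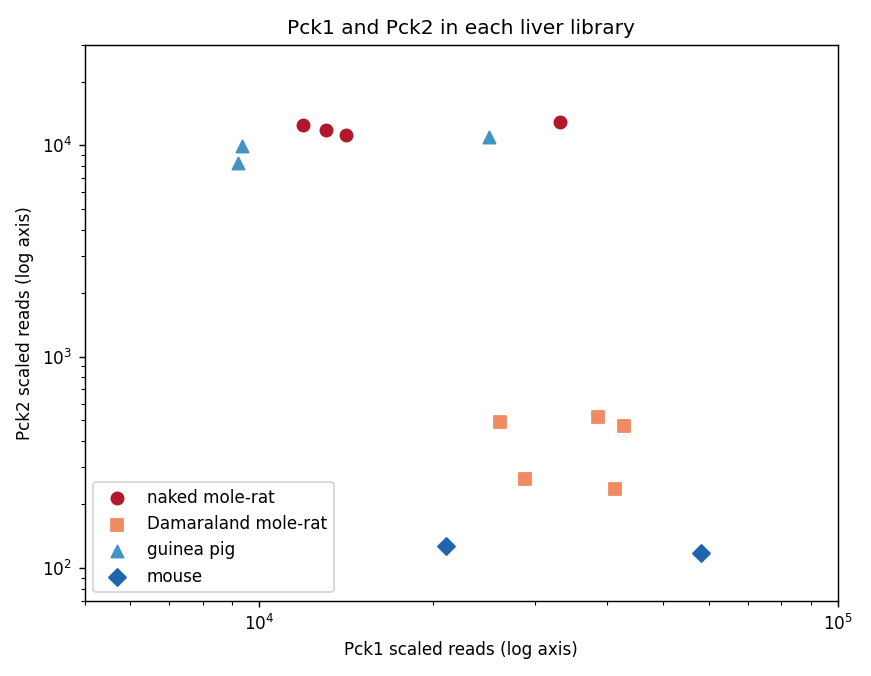
Scaled reads of Pck1 (horizontal, log axis) and Pck2 (vertical, log axis) in each of the 14 liver libraries, by species. The naked mole-rat and guinea pig livers hold at least 8222 Pck2 scaled reads and the Damaraland mole-rat and mouse livers at most 518, while the 2 pairs of species overlap in Pck1.

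In heart both carboxykinase genes were low, and Pck1 was highest in the naked mole-rat. Heart Pck1 was 8.97, 7.96 and 8.43 in the naked mole-rat, 7.23, 8.23, 7.19, 6.14 and 6.88 in the Damaraland mole-rat, 6.16, 6.38 and 6.05 in the guinea pig, and 6.17, 6.75 and 6.25 in the mouse. Naked mole-rat hearts lay above all outgroup hearts and overlapped with 1 Damaraland heart, replicate 2. The naked mole-rat was higher than the guinea pig by 2.25 (SE 0.37, limma adjusted p = 6.2e-05), the mouse by 2.06 (SE 0.37, limma adjusted p = 0.000128) and the Damaraland mole-rat by 1.31 (SE 0.33, limma adjusted p = 0.00254). In scaled reads the species means were 317, 97.3, 16.2 and 26.0 in the naked mole-rat, Damaraland mole-rat, guinea pig and mouse. The mole-rat mean exceeded the outgroup mean by 1.497 (SE 0.25, limma adjusted p = 5.33e-05), while the Damaraland mole-rat was called against neither outgroup. Its hearts overlapped with those of both. It was above the guinea pig by 0.94 (SE 0.33, limma adjusted p = 0.0216), missing only the size threshold. The difference from the mouse was 0.74 (SE 0.33, limma adjusted p = 0.0578). In mean scaled reads these were 6.01 and 3.74 times the outgroup level.

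Summed hepatocyte marker genes, like Pck1 on average, were highest in naked mole-rat heart. The list, with 6 of 7 genes in the tables, summed to 34265, 12079 and 32397 scaled reads in the 3 naked mole-rat hearts. It summed to 2074 to 5849 in Damaraland, 472 to 2205 in guinea pig and 388 to 1354 in mouse hearts. Most of the naked mole-rat sums was Alb (9568 to 28971). Alb, Ttr, Fgb, Cps1 and Tat were each highest in naked mole-rat hearts, while Apoa2 (27.1 to 188) overlapped with Damaraland hearts (32.6 to 300). Within mouse, within guinea pig and within naked mole-rat hearts, the sums and Pck1 put the libraries in the same order. Naked mole-rat replicates 1 to 3, whose sums are given above, had 466, 192 and 295 Pck1 scaled reads. Among Damaraland hearts the order differed: replicates 2 and 5 had sums of 5768 and 5849, and 246 and 55.2 Pck1 scaled reads. Pck1 had 9.11 to 15.9 reads per 1000 hepatocyte marker reads in naked mole-rat heart and 4.06 to 19.3 in naked mole-rat liver. Pck2 had 4.67 to 7.66 in naked mole-rat heart and 3.68 to 7.50 in naked mole-rat liver. For the naked mole-rat, heart ratios thus lay within or overlapped with liver ratios. Pck1 ratios of heart and liver also overlapped for each other species. Pck2 ratios did not: Damaraland hearts had 15.6 to 65.5, against 0.095 to 0.27 for Damaraland livers. Guinea pig hearts had 31.7 to 62.8, against 5.82 to 8.35 for livers, and mouse hearts 103 to 372, against 0.094 to 0.096. The part of hepatocyte RNA in the heart values was not tested. The summed adipocyte list, whose cell type also expresses Pck1, was lowest in naked mole-rat heart, at 1361 to 2340 scaled reads, and highest in mouse heart, at 6746 to 7905. Most of these sums was Fabp4 (986 to 1643 in the naked mole-rat and 5956 to 7229 in the mouse). Adipoq, Cidec and Cfd were instead higher in naked mole-rat than in mouse heart, with Adipoq at 5.61 to 57.4 against at most 4.44. The part of these cells in the Pck1 values was not tested.

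Heart Pck2 was 7.78, 7.28 and 7.92 in the naked mole-rat, 7.08, 7.25, 6.90, 7.64 and 7.47 in the Damaraland mole-rat, 6.64, 7.08 and 6.50 in the guinea pig, and 7.68, 7.64 and 7.47 in the mouse. The guinea pig hearts were the lowest as a group and overlapped with the Damaraland hearts. No species pair was called, and the largest difference was naked mole-rat above guinea pig by 0.92 (SE 0.22, limma adjusted p = 0.00163).

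The other genes of glycolysis and gluconeogenesis were described from a list of 44, of which 41 had rows in the tables and Gapdh, Cebpa and Cebpb were not analysed here. In heart 38 were tested and 10 were called in the mole-rat mean against the outgroup mean, beside 23.4% of all genes, 7 higher and 3 lower, with a median difference of -0.01 for the list and for all genes. In liver 41 were tested and 12 were called, beside 28.1% of all genes, 7 higher and 5 lower, with a median of 0.25 against 0.02 for all genes. None of the 38 was called in all 4 mole-rat and outgroup contrasts in heart, beside 4.68% of all genes, and 2 of 41 were in liver, beside 6.29%. These counts lie near the shares over all genes.

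Those 2 liver genes were Gckr and Hk3. Gckr, the regulatory protein that holds glucokinase inactive in the hepatocyte nucleus, averaged 12.80 ± 0.08 (SD, n = 4) in the naked mole-rat and 11.95 ± 0.08 (n = 5) in the Damaraland mole-rat, against 10.02 ± 0.63 (n = 3) in the guinea pig and 10.55 ± 0.19 (n = 2) in the mouse. All mole-rat livers lay above all outgroup livers, with a mean difference of 2.09 (SE 0.16, limma adjusted p = 3.7e-09). The summed hepatocyte marker list was also higher in the mole-rats, at 1720500 to 3212890 scaled reads, than in the outgroups, at 984919 to 1714860. Most of it was Alb, and no single gene of the list split the mole-rats from the outgroups as Gckr did. Ttr was lower in mole-rat than in guinea pig livers (73870 to 136855), and Cps1 was lowest in Damaraland livers (43498 to 55835). Per 1000 hepatocyte marker reads, liver Gckr was 2.57 to 4.39 in the naked mole-rat and 1.66 to 2.47 in the Damaraland mole-rat. It was 0.45 to 1.87 in the guinea pig and 1.09 to 1.44 in the mouse, so Damaraland and guinea pig livers overlapped on this scale. The part of the list in the Gckr result was not tested. Hk3, a hexokinase of myeloid cells, averaged 4.94 ± 0.18 and 5.05 ± 0.28 in the naked and Damaraland mole-rats, or 1 to 17 reads per library, against 7.35 ± 0.28 in the guinea pig and 6.71 ± 0.04 in the mouse. All mole-rat livers lay below all outgroup livers, with a mean difference of -2.03 (SE 0.15, limma adjusted p = 2.25e-09). The leukocyte marker list was highest in the guinea pig, at 3146 to 4801 summed scaled reads, and overlapped between the mole-rats (1096 to 2499) and the mouse (1611 to 1628).

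The genes with the highest and lowest called differences in heart did not split the mole-rats from the outgroups without overlap. Fbp2, the muscle fructose-1,6-bisphosphatase, averaged 11.22 in naked mole-rat, 8.58 in Damaraland, 6.17 in guinea pig and 8.82 in mouse heart (mole-rat minus outgroup 2.40, SE 0.13). The enolase gene Eno2 was 9.86, 9.54, 9.11 and 6.03 in the same order (2.13, SE 0.14), so that the mouse was low and the guinea pig close to the mole-rats. Among the lower genes, Pgam2, the muscle phosphoglycerate mutase, was 12.41, 9.14, 11.46 and 12.96 (-1.43, SE 0.20), and the muscle hexokinase gene Hk2 was 7.40, 12.12, 8.86 and 12.99 (-1.17, SE 0.15). Tpi1, triosephosphate isomerase, was 12.91, 5.36, 12.48 and 13.35, its difference of -3.78 (SE 0.24) resting on the 0 reads of the Damaraland libraries.

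In liver the 3 highest differences were those of Eno2 (2.61, SE 0.14), Eno3 (2.25, SE 0.29) and Gckr. Eno2 averaged 7.45 in the naked mole-rat, 9.33 in the Damaraland mole-rat, 6.79 in the guinea pig and 4.78 in the mouse, and Eno3, the muscle enolase, averaged 7.42, 10.10, 6.77 and 6.25. Both were highest in the Damaraland mole-rat. The 3 lowest were Fbp2 (-4.33, SE 0.13), Tpi1 (-3.76, SE 0.10) and Hk3. Fbp2 was at 9792 to 14069 reads in the guinea pig livers and at 0 to 3 reads in every other liver, so its difference rests on the guinea pig. Tpi1 was at 11.88, 11.29 and 12.40 in the naked mole-rat, guinea pig and mouse livers and at 0 reads in the Damaraland livers.

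Among the enzymes that share the gluconeogenic route with Pck1 and Pck2, 2 were singled out after their values were seen. Pcx, pyruvate carboxylase, which makes the oxaloacetate that the carboxykinases use, averaged 10.65 ± 0.49 (SD, n = 4) in naked mole-rat liver, against 12.37 ± 0.23, 12.98 ± 0.26 and 13.48 ± 0.03 in Damaraland, guinea pig and mouse liver (n = 5, 3 and 2). G6pc, the catalytic subunit of glucose-6-phosphatase that releases free glucose, averaged 11.44 ± 0.74 in the naked mole-rat against 12.95 ± 0.61, 12.82 ± 0.22 and 12.97 ± 0.26. Both were called lower in the naked mole-rat than in each other species, as was Pgam1, a phosphoglycerate mutase, while Pgam2 was called higher. These 4 of 41 genes compare with 10.3% of all genes called against each other species for the naked mole-rat in liver.

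**Figure D5:**
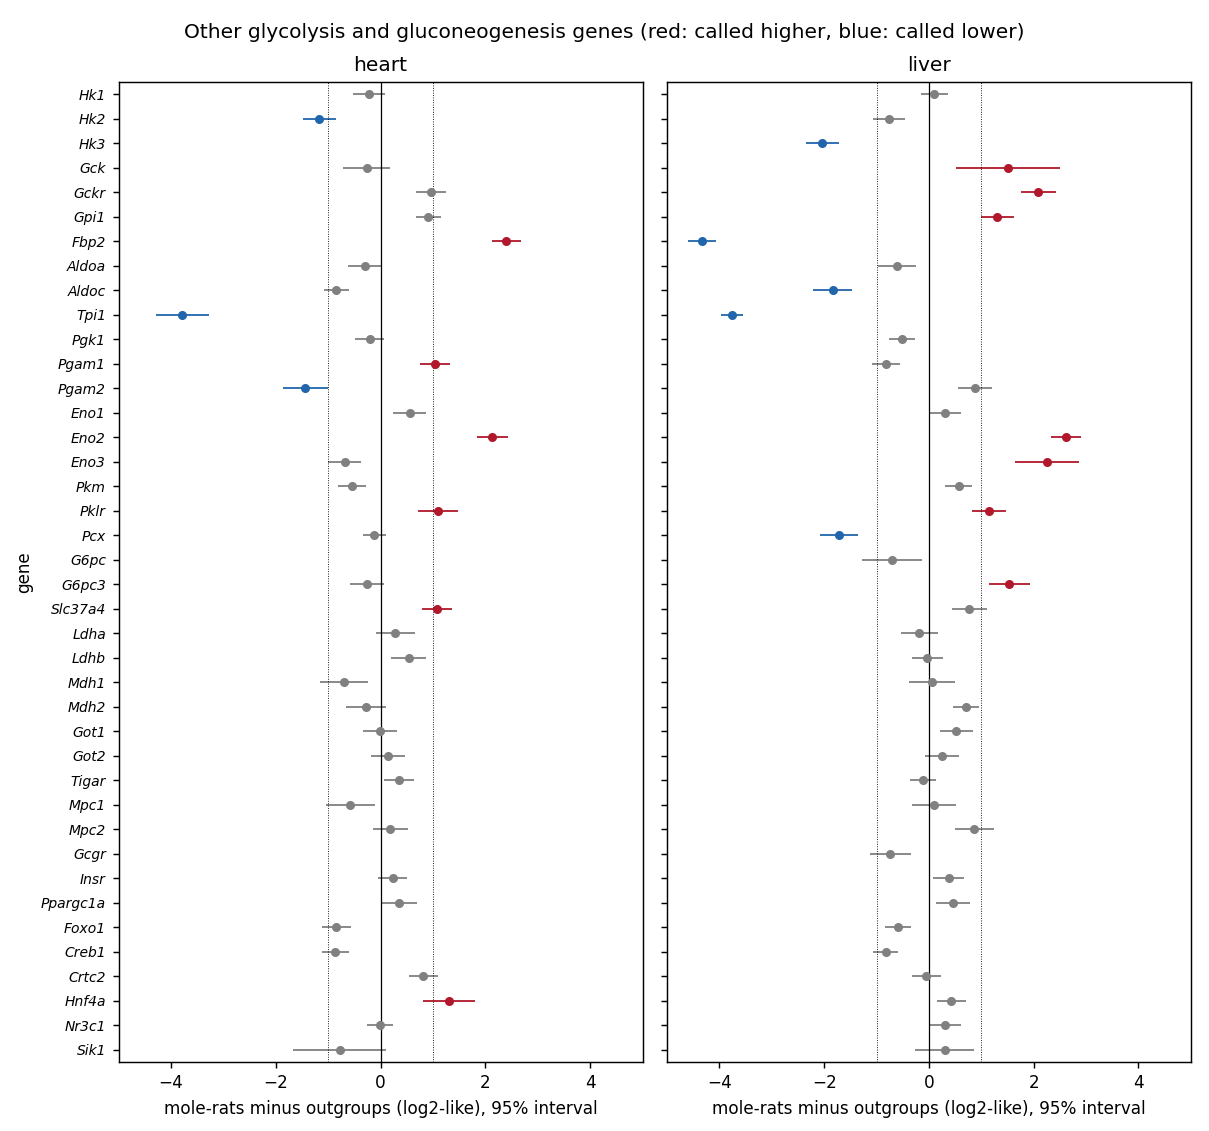
Mole-rat mean minus outgroup mean in the log2-like value for genes of the pathway list tested in heart and liver; red points were called higher, blue points were called lower and bars are 95% intervals. Liver Fbp2 and Tpi1 in both tissues lie farthest to the lower side, at -4.33, -3.78 and -3.76, and most of the points are grey, for genes not called.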

How the data were processed

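The deposited files hold variance-stabilised expression on a log2-like scale, made by the authors as a separate table for each tissue, with a row per mouse Ensembl gene identifier. Per the submitters' processing notes, cutadapt, Salmon, DESeq2 and the GRCm38 build were used, with no role stated. How genes were matched across species, and how reads shared by related genes such as Pck1 and Pck2 or the phosphofructokinase genes were divided, is not given in the sources used here. Of 13928 rows per table, 13921 matched a symbol. The tables also hold 26 columns of other series, which were not used. The 28 libraries were grouped by species and tissue from the labels.

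Inverting the transform gave whole reads for 100% of values (tolerance 1e-05), from which depth and scaled reads were taken. Species differences in the deposited log2-like values were fitted by limma 3.58.1 (R 4.3.3), 1 fit per tissue, with a coefficient per species, a variance trend and Benjamini-Hochberg adjustment over all genes whose mean exceeded the value of 0 reads by 1 or more. This kept 10667 genes in heart and 10887 in liver, and the procedure was tested on simulated data. Labels name separate animals, so p-values measure the spread between 2 to 5 animals per group. The heart and liver tables were normalised separately, so levels were not compared between tissues. The members and gene lists were chosen with earlier results of these data known. All members were described. Of the pathway list, genes called in all 4 mole-rat and outgroup contrasts and the 3 highest and 3 lowest called differences per tissue were named, except for 1 result that is not reported here, and similar genes were the 3 with the highest correlation to a member called in all 4 contrasts or, where there was none, to the member with the largest called difference. Alternatives covered thresholds, filters, centring, quantile normalisation, variance models, sample weights, a replicate block, voom on the recovered reads and leaving out each library. Those for single pathway genes were chosen after seeing the data.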

Additional observations from a re-analysis of the deposited data

Results flagged for a closer look

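In 2 of 21 groups of 4 or 5 libraries a single animal stood apart by Dixon's test at the 95% level, and chance alone flags about 1 in 20 groups. Heart Pfkm in Damaraland mole-rat replicate 1 was 14.36, below the other 4 hearts at 15.04 to 15.23. Liver Pck1 in naked mole-rat replicate 4 was 14.87, above the other 3 livers at 13.39 to 13.64.

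In 5 of 49 gene and contrast combinations the groups did not overlap in either tissue and lay in opposite orders in heart and liver. Pfkl in naked mole-rat against mouse differed by -1.15 in heart and 1.12 in liver, and Pfkfb1 in the same contrast by -1.18 and 0.83. Pfkfb4 differed by 2.25 in heart and -0.52 in liver for naked mole-rat against guinea pig, and by -0.47 and 0.78 for guinea pig against mouse. Pck2 differed by -0.86 in heart and 5.89 in liver for guinea pig against mouse. The difference between the tissues was not tested, since the tables were normalised separately, and some animals gave both tissues.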

How the results depend on the processing

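Of 40 called member differences, 20 stayed called under every alternative that kept the gene and 0 changed sign. The alternative with genes above the table median only did not keep every member. With no size threshold, members called for mole-rats against outgroups numbered 4 in heart and 4 in liver, for naked against Damaraland heart 5, over the species pairs 30 in heart and 29 in liver, and pathway genes 23 and 30. When tested against a difference of 1, these numbered 1 and 1, 1, 8 and 10, and 3 pathway genes in heart, with 0 members in all 4 heart contrasts, and 20 single calls were lost. With genes above the table median only, which removes low genes such as heart Pck1 and Pfkfb4, 0 members were called in heart for mole-rats against outgroups, in all 4 contrasts and for naked against Damaraland, 5 over the heart pairs and 1 in liver for mole-rats against outgroups, and quantile normalisation left 1 in liver. Leaving out 1 library gave 0 to 1 heart members in all 4 contrasts. Centring, no variance trend and robust empirical Bayes changed no call of a member. Voom on the recovered reads kept all 10 counts within 1.5 times, called heart Pfkfb1 in mole-rats against outgroups (-1.81) and gave larger differences for low genes, such as -4.87 for naked against Damaraland heart Pfkfb1. Without the low-value filter the liver calls of Pfkm in Damaraland against mouse (adjusted p = 0.0585 by limma) and Pck1 in guinea pig against mouse (adjusted p = 0.0505 by limma) were lost. Array weights ended the calls of heart Pfkl in naked against mouse (-0.84) and of liver Pck1 in Damaraland against guinea pig (0.95) and guinea pig against mouse (-0.93), and quantile normalisation those of heart Pfkl in naked against mouse (-0.99) and liver Pfkfb4 in mole-rats against outgroups (0.99).

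Uncalled liver differences of mole-rats against outgroups turned sign: Pfkp under quantile normalisation (-0.028) and over single libraries left out (-0.21 to 0.28), and Pck1 under quantile normalisation (-0.0015), array weights (-0.15), the replicate block (-0.11) and over single libraries left out (-0.19 to 0.54). The causes were not tested. Replicate numbers were not treated as pairs in the main fit. No comparison of 2 species with 3 or more pairs had a correlation of deviations over 0.1 in every same-numbered pair. That cutoff cannot show that the libraries were unpaired. The nearest was guinea pig and mouse heart, at 0.084 to 0.0998. Guinea pig and mouse liver, with 2 pairs, had 0.085 and 0.145, and Damaraland and guinea pig heart ran from -0.082 to 0.30. With the replicate block, 1 member was called for naked against Damaraland heart, the calls of heart Pfkfb4 in Damaraland against mouse (0.81), heart Pck1 in naked against Damaraland (0.90) and liver Pfkl in naked against mouse (0.9997) were lost, and heart Pfkl (-1.03) and liver Pck2 (1.004) in mole-rats against outgroups were called. Depth limits heart Pfkfb1 in the naked mole-rat, at 6 to 11 reads, and liver Pfkfb4 in the mouse, at 3 to 16. Of 32 differences of named pathway genes, 24 stayed called under every alternative that kept the gene and 0 changed sign. Pgam1 in liver, naked mole-rat against guinea pig, was no longer called with the block or without guinea pig replicate 1, guinea pig replicate 3, naked mole-rat replicate 1 or naked mole-rat replicate 4.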

Other observations

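The genes most alike to a member over the 14 libraries of a tissue were listed as a description. For heart Pfkfb4 these were Atp13a2 (Pearson's r 0.97), Gripap1 (0.96) and Eml5 (0.96). For liver Pfkfb1 they were Med24, Accs and Baiap2l2 (each 0.98), of which Accs averaged 9.56 in the Damaraland mole-rat against 7.49 in the naked mole-rat, 7.03 in the guinea pig and 6.32 in the mouse. For liver Pck2, chosen after its values were seen, they were Tmem45b (0.99), Lyl1 (0.98) and Cpsf2 (0.98). Tmem45b averaged 11.63 in the naked mole-rat and 11.02 in the guinea pig against 5.21 in the Damaraland mole-rat and 4.66 in the mouse. The points of these correlations share species, and 14 libraries hold only 4 species.

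Heart held low levels of 2 genes best known from liver. Gckr averaged 7.62 in naked mole-rat heart and 6.18, 6.14 and 5.73 in Damaraland, guinea pig and mouse heart, and Hnf4a averaged 8.09 against 6.53, 6.04 and 5.96. In naked mole-rats Gckr had 4.55 to 6.53 reads per 1000 hepatocyte marker reads in heart and 2.57 to 4.39 in liver, and Hnf4a had 7.89 to 9.61 and 3.60 to 6.46. Their share per hepatocyte marker read was thus higher in naked mole-rat heart than in naked mole-rat liver, with no overlap. For Gckr this was not particular to the naked mole-rat. Guinea pig hearts had 9.23 to 20.3 against 0.45 to 1.87 in livers, and mouse hearts 1.91 to 9.45 against 1.09 to 1.44. Damaraland Gckr ratios overlapped between the tissues, as did Hnf4a ratios in the Damaraland mole-rat, guinea pig and mouse. The part of hepatocyte RNA in these heart values was not tested.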
